A study of Mus musculus with 3 samples.

Results

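The guidance genes examined here are the semaphorins and plexins, the ephrins and Eph receptors, the netrins with their receptors, and the Slit and Robo genes. Members were taken by symbol, as genes of classes Sema3 to Sema7, Plxna to Plxnd, Efna, Efnb, Epha and Ephb, with Ntn1, Ntn3, Ntn4, Dcc, Neo1, Unc5a to Unc5d, Slit1 to Slit3 and Robo1 to Robo4. The array held 67 of them among 18193 named genes, read by 148 probe sets that each had a single gene symbol. Of these, 66 code for proteins, and Plxna4os1 is an antisense transcript whose symbol met the same rule. The RNA came from PDL-L2, an immortalised mouse line of the periodontal ligament, the connective tissue between tooth root and jaw bone. One condition was siENG with BMP-2, meaning cells given an siRNA pool against endoglin (Eng), a TGF-beta family co-receptor, and then recombinant human BMP-2 at 250 ng/ml. A second was siCont with BMP-2, cells given a non-targeting siRNA pool and the same BMP-2, and the third was siCont with vehicle. Exposure lasted 12 h and began 48 h after transfection, and each condition was read on 1 Affymetrix mouse genome array. As no condition has a second array, no difference can be checked against replicates, and neither a test nor a p-value is given.

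These ligands and receptors were first known for steering growing axons. Semaphorins signal through plexins, the secreted class 3 members mostly with a neuropilin as co-receptor, and plexins act on small GTPases that control the cytoskeleton. Ephrins and Eph receptors are both bound to the cell surface, so they signal between touching cells, and in blood vessels ephrin-B2 and EphB4 mark arteries and veins. Netrins attract through DCC and neogenin and repel through UNC5 receptors, and Slits repel through Robo receptors. In connective tissue and bone, members of all these families take part in cell migration, vessel growth and the coupling of bone formation and resorption.

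A gene was read by its probe set of highest mean log2 signal. It was kept in a comparison if at least 1 of the 2 signals reached 23, the median of all signals. Log2 ratios are given relative to the median ratio of all probe sets past this limit, which was 0.01 for BMP-2 over vehicle in siCont cells and 0.21 for siENG over siCont in BMP-2-treated cells. "Called" means a relative ratio of at least 2 or at most 0.5, or, as a second rule, a relative ratio of at least 1.5 (or its inverse) with a signal of at least 152, the 75th percentile. As a measure of precision each ratio is set beside the robust SD of the log2 ratios of all probe sets of like signal. This SD covers spread between features on the 2 arrays and not between cultures. Signals of up to 13.1 were seen on the 27 probe sets for Bacillus genes, which no mouse RNA should bind, and a signal in that range is treated as a bound.

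Endoglin had signals of 108 with siENG and BMP-2, 299 with siCont and BMP-2 and 286 with siCont and vehicle. A second Eng probe set gave 45.3 with siENG and BMP-2, 121 with siCont and BMP-2 and 121 with siCont and vehicle. The relative log2 ratios of siENG over siCont in BMP-2 were -1.67 and -1.62. Of 10 matched markers of ligament and tendon fibroblasts, 8 were above the limit on at least 1 array, among them Col1a1 and Postn, but Aspn and Tnmd lay within the range of the Bacillus controls on all 3 arrays. Of 7 neuronal markers 2 were above the limit, and their summed signal was 208 with siENG and BMP-2, 193 with siCont and BMP-2 and 192 with siCont and vehicle. Of 6 endothelial markers only Kdr, a VEGF receptor, was above the limit. It had 20 with siENG and BMP-2, 25.8 with siCont and BMP-2 and 4.2 with siCont and vehicle, and was called higher with BMP-2. The vehicle value of Kdr is no brighter than the Bacillus controls, so the size of this difference is known only as a bound. The other 5, Pecam1, Cdh5, Tek, Emcn and Tie1, were no brighter than the Bacillus controls on any array, and the 6 summed to 48.1 with siENG and BMP-2, 51.4 with siCont and BMP-2 and 27.2 with siCont and vehicle. The part of this in the BMP-2 results below was not tested. The corresponding counts were 2 of 4 for glia, 2 of 5 for leukocytes and 2 of 4 for epithelium, where Krt14 was called lower with BMP-2 and Epcam lower with siENG. The lower signals, 7.3 for Krt14 with siCont and BMP-2 and 11.9 for Epcam with siENG and BMP-2, were likewise no brighter than the Bacillus controls. The siENG array stood apart in 1 further respect: of 15 hypoxia-responsive genes kept, 11 were called higher and 0 lower against siCont BMP-2 (73.3% higher, against 2.32% of all genes kept), with a median relative log2 ratio of 1.71. This hypoxia list was chosen with earlier results of these data known, so its share called is not independent evidence. The part of the hypoxia difference in the siENG results below was not tested.

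The 4 guidance genes of highest ratio to their SD with BMP-2 were Unc5b, a netrin receptor, Efna3 and Efnb2, which encode ephrin-A3 and ephrin-B2, and Plxnd1, the plexin that binds semaphorin 3E. Their promoters are shown because these members were higher together. Each sequence is the 250 bases before a RefSeq transcript start on GRCm38.p6, all on the minus strand, at chr10:60831582-60831831 for Unc5b, chr3:89322940-89323189 and chr3:89321769-89322018 for the 2 starts of Efna3, chr8:8661243-8661492 for Efnb2 and chr6:115995006-115995255 for Plxnd1. Capitals mark GGCGCC, a GC-rich motif bound by Smad proteins, the transcription factors of BMP signalling.
Unc5b: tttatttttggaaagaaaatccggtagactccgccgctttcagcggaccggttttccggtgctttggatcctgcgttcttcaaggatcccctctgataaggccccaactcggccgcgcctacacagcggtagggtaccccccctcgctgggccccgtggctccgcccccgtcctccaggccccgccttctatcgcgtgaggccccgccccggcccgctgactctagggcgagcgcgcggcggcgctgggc
Efna3, first start: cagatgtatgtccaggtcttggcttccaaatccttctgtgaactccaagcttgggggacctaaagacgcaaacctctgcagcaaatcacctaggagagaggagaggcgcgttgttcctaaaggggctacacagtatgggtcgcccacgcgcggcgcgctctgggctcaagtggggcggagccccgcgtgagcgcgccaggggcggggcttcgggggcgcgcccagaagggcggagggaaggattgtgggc
Efna3, second start: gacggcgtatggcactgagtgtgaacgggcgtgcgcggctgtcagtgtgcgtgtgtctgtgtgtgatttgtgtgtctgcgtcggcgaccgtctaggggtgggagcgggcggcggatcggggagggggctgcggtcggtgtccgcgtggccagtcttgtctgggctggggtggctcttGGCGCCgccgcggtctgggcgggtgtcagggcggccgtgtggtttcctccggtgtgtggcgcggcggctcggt
Efnb2: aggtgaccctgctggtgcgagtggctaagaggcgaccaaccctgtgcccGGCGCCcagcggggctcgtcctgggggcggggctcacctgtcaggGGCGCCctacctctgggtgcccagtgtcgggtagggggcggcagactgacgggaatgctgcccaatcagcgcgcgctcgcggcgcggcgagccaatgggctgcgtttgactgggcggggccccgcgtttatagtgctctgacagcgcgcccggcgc
Plxnd1: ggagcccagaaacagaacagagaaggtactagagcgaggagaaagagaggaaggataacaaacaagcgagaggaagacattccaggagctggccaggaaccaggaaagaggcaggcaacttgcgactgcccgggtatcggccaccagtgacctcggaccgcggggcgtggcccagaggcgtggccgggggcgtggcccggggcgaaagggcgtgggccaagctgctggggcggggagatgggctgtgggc

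Efnb2 held GGCGCC at 2 places, 201 and 156 bases before the start, and the second Efna3 start held it once, 73 bases before. The letters were not found in the windows of Unc5b, Plxnd1 or the first Efna3 start. GGCGCC reads the same on both strands and was present in 22.2% of 72 windows of 56 guidance genes, against 9.59% of all 32851 promoter windows. The median GC content of the windows was 64.4% for the guidance genes and 52.4% for all genes. The part of GC content in the share with the motif was not tested. ACGTG, the core of the hypoxia response element, was searched on both strands, was found in none of the 5 windows printed, and was in 16.7% of guidance gene windows and 16.6% of all windows. A match is a description of the sequence and not a binding site.

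In these cells 40 of the 67 guidance genes (59.7%) were above the limit on at least 1 array, close to the 60.8% of all named genes. Bright members were fewer: 14 of 67 (20.9%) reached 152 on any array, against 39.5% of all genes. Plexins and secreted semaphorins were largely above the limit, with 8 of 9 plexins and 6 of 7 class 3 semaphorins. Of the membrane semaphorins of classes 4 to 7, 6 of 13 were above it and none reached 152. Among the contact ligands, 4 of 5 ephrin-A and 3 of 3 ephrin-B genes were above the limit. Their receptors were split, with 3 of the 9 EphA and 3 of the 4 EphB genes read lying above it. Ephb2 was not among the genes read. Of the netrin group, 2 of 3 netrins (Ntn1 and Ntn4) and 3 of 6 receptors (Dcc, Neo1 and Unc5b) passed. Slit2 was the 1 Slit of 3 and Robo3 the 1 Robo of 4 above the limit. The remaining 27 genes were below the limit on all 3 arrays, and 15 of them lay within the range of the Bacillus controls throughout, among them Slit1, Slit3, Robo1 and Robo2.

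**Figure D1:**
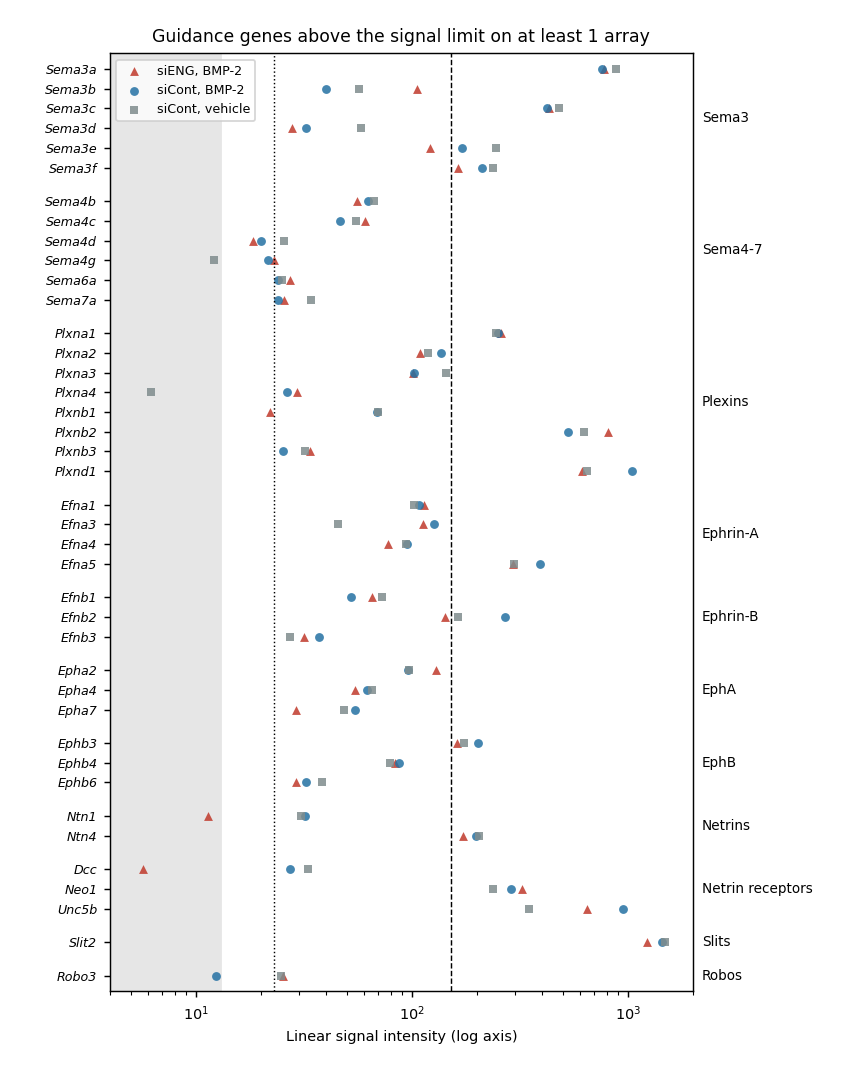
Linear signal (log axis) of the 40 guidance genes above the limit on at least 1 array, grouped by role, with 1 point per array (siENG BMP-2, siCont BMP-2, siCont vehicle). The dotted line is the limit of 23, the dashed line is 152, the 75th percentile, and the grey band is the range of the Bacillus controls up to 13.1. The points of Slit2 (1230 with siENG and BMP-2, 1445 with siCont and BMP-2, 1485 with siCont and vehicle) lie close together, while those of Unc5b, Efna3 and Plxnd1 are spread.

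The first comparison asked which genes respond to BMP-2 where endoglin is present. Unc5b, Efna3, Efnb2 and Plxnd1 were higher with BMP-2, at relative ratios of 1.61 to 2.78 on the linear scale. All 6 class 3 semaphorins kept had relative log2 ratios below 0 on the probe set read. As the mean over probe sets, Sema3b (0.17) and Sema3d (0.053) were above 0. Of 39 guidance genes kept, 3 were called higher by the 2-fold rule, namely Unc5b, Efna3 and Plxna4 (7.69%, against 1.78% of all genes kept), and 1, Robo3, was called lower (2.56%, against 1.59%). Among the 14 with a signal of at least 152, 3 were higher by the 1.5-fold rule, namely Unc5b, Efnb2 and Plxnd1 (21.4%, against 1.99% of all such genes), and 0 were lower (against 0.952%). The median relative log2 ratio of the 39 was -0.05, beside 0.00 over all genes kept. Ratios of over 2 robust SDs in either direction were found for 7 of the 39 (17.9%, against 10.7% of all genes kept). Both signals were at or above the limit for 36 of the 39. In bulk RNA, fewer cells of a type and less RNA per cell cannot be told apart. Unc5b and Efna3 are also on the study's own list of genes induced by BMP-2, which was drawn up on these arrays, so their presence there is not independent evidence.

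Unc5b, whose product binds netrins and in several cell types mediates repulsion and survival signals, had 945 with BMP-2, against 350 with vehicle. Its relative log2 ratio was 1.42, with a robust SD of 0.15 at that signal. The second Unc5b probe set read 710 with BMP-2, against 245 with vehicle, a relative log2 ratio of 1.53. Both probe sets were thus well above vehicle, and this was the guidance gene with the ratio farthest from 0 in units of its SD. The other netrin receptor of high signal was Neo1, which encodes neogenin, a receptor that also binds repulsive guidance molecules and is tied to BMP signalling. Its brightest probe set had 287 with BMP-2, against 237 with vehicle, a ratio of 0.27 with an SD of 0.19. Its 5 probe sets did not run one way, with ratios of -0.89 to 0.34. Dcc, the receptor for netrin attraction, had 27.2 with BMP-2, against 33.0 with vehicle, which is within the spread at that signal (ratio -0.29, SD 0.51).

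The netrins were not called. Ntn4, a laminin-like netrin of basement membranes, had 198 with BMP-2, against 205 with vehicle, a ratio of -0.05 with an SD of 0.21. Ntn1, the netrin of the classical axon assays, was dim, with 32.0 with BMP-2, against 30.6 with vehicle. Its second probe set, below the limit, read 17.1 with BMP-2, against 0.9 with vehicle, and with the mean over probe sets Ntn1 would be called higher (2.15).

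Efna3, a ligand held to the membrane by a lipid anchor, had 127 with BMP-2, against 45.4 with vehicle, a relative ratio of 2.78 on the linear scale and 5.07 robust SDs from 0 on the log2 scale. The second Efna3 probe set did not follow, with 28.8 with BMP-2, against 28.4 with vehicle. The call for Efna3 rests on 1 of its 2 probe sets. Efna5, another ephrin-A that acts widely in the placing of axon maps, had 390 with BMP-2, against 298 with vehicle, a ratio of 0.38 with an SD of 0.17 that was called by neither rule. Efna1 (108 with BMP-2, 102 with vehicle) and Efna4 (94.5 with BMP-2, 93.9 with vehicle) were nearly level.

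Efnb2, the arterial ephrin that also signals into the cell that carries it, had 271 with BMP-2, against 163 with vehicle. The relative log2 ratio was 0.73 with an SD of 0.19. All 4 Efnb2 probe sets were higher with BMP-2, with ratios of 0.67 to 1.12, so the direction did not hang on the choice of probe set. The other ephrin-B genes were each within 2 robust SDs. Efnb1, which is mutated in a human craniofacial syndrome, had 52.1 with BMP-2, against 72.6 with vehicle (ratio -0.49, SD 0.34). Its other probe sets gave 0.07 and -0.63. Efnb3 had 37.2 with BMP-2, against 27.2 with vehicle (0.44, SD 0.44). Of the receptors, Ephb3 had 203 with BMP-2, against 175 with vehicle, and Ephb4, the main partner of ephrin-B2, had 87.6 with BMP-2, against 78.9 with vehicle. Their ratios of 0.21 and 0.14 were each within 1 robust SD. The EphA receptors above the limit, Epha2, Epha4 and Epha7, lay between -0.08 and 0.17. A second Epha4 probe set read 49.9 with BMP-2, against 26.3 with vehicle (0.92), and another had -0.40.

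Plxnd1, which with its ligand semaphorin 3E shapes growing vessels, had 1041 with BMP-2, against 645 with vehicle. The relative log2 ratio was 0.68 with an SD of 0.15, on the 1 probe set of the gene. Sema3e itself went the other way, with 171 with BMP-2, against 246 with vehicle (ratio -0.53, SD 0.21), and all 4 of its probe sets were lower, by ratios of -0.53 to -0.10. The ligand was thus lower and its receptor higher on the same array. Sema3d had 32.3 with BMP-2, against 57.9 with vehicle (-0.85, SD 0.44). Sema3a, the classical collapsing factor for growth cones and a factor that protects bone, had 763 with BMP-2, against 879 with vehicle (-0.21, SD 0.15), and its 3 probe sets were all lower. Sema3c, Sema3f and Sema3b, also secreted, had ratios of -0.20, -0.17 and -0.52, and the second Sema3c probe set had 0.09. Except for Sema3e, each class 3 ratio was within 2 robust SDs, and none was called.

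Of the other plexins, Plxnb2 had 529 with BMP-2, against 628 with vehicle (-0.26, SD 0.15), Plxna1 had 251 with BMP-2, against 245 with vehicle, and Plxna3 had 103 with BMP-2, against 144 with vehicle (-0.50, SD 0.26). Plxna4 was called at low signal, with 26.3 with BMP-2, against 6.2 with vehicle. The vehicle value is no brighter than the Bacillus controls, which makes Plxna4 at least 2.01-fold higher, and the second Plxna4 probe set was below the limit. Robo3, a Robo that in mammals does not bind Slits in the usual way, had 12.4 with BMP-2, against 24.9 with vehicle. Here the BMP-2 value was within the control range, and Robo3 is at least 1.90-fold lower, less than the 2-fold of the call. Its second probe set, below the limit, ran the other way (18.4 with BMP-2, 8.5 with vehicle). Slit2, the Slit with the widest known role in repulsion, had 1445 with BMP-2, against 1485 with vehicle, a ratio of -0.05 with an SD of 0.11. The membrane semaphorins Sema4b, Sema4c, Sema4d, Sema6a and Sema7a lay between -0.52 and -0.07, and none was called.

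**Figure D2:**
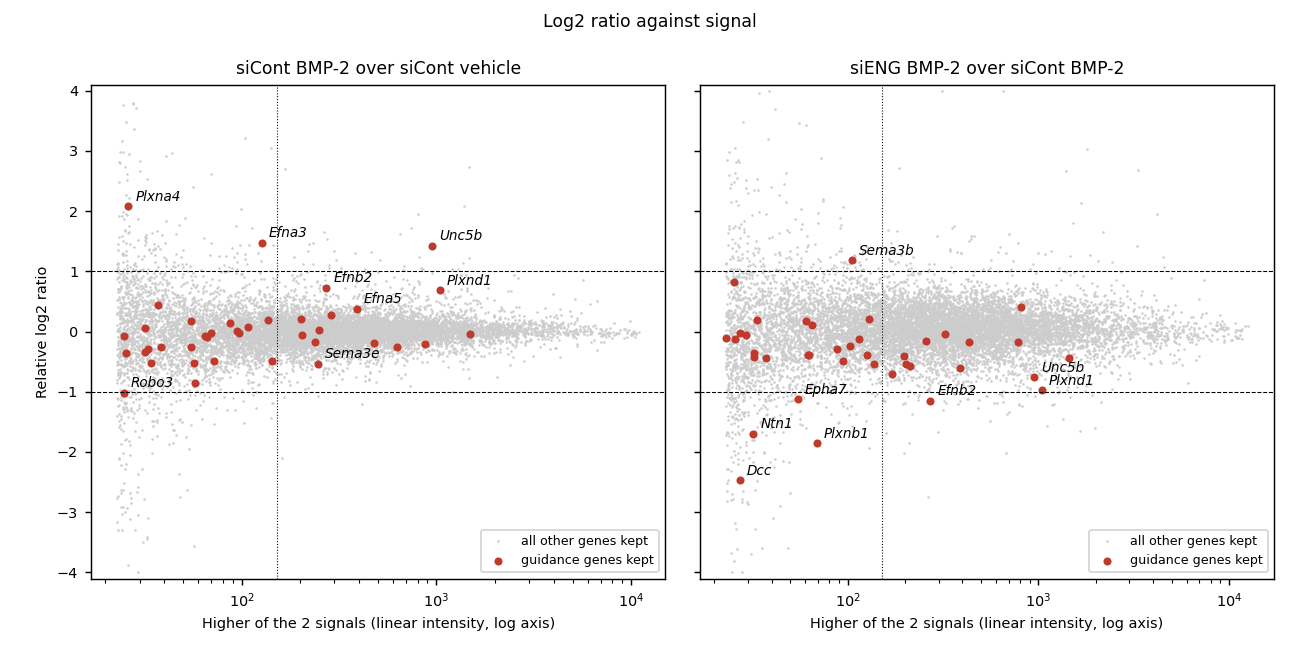
Relative log2 ratio against the higher of the 2 signals (linear intensity, log axis) for siCont BMP-2 over siCont vehicle (left) and siENG BMP-2 over siCont BMP-2 (right). Grey points are all other genes kept (values beyond 4 in size are drawn at 4), red points are guidance genes kept, dashed lines mark a ratio of 2-fold and the dotted line a signal of 152; names are given for ratios of over 2 robust SDs or called 2-fold. Unc5b lies at 1.42 on the left, and Plxnd1 (-0.97), Efnb2 (-1.15) and Unc5b (-0.75) lie in the lower part of the grey points on the right.

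The second comparison set siENG against siCont with BMP-2 on both arrays, and asked which genes differ with siENG in BMP-2-treated cells. There is no siENG array without BMP-2. An effect of the siRNA alone and a change in the response to BMP-2 therefore cannot be told apart. Efnb2, Plxnd1, Unc5b, Sema3e and Efna5 had lower signals with siENG, and Sema3b was higher. Of 39 guidance genes kept, 1 was called higher by the 2-fold rule, Sema3b (2.56%, against 2.32% of all genes kept), and 5 were called lower, namely Plxnb1, Efnb2, Epha7, Ntn1 and Dcc (12.8%, against 2.7%). Among the 14 with a signal of at least 152, 0 were higher by the 1.5-fold rule (against 4.83% of all such genes) and 5 were lower, namely Sema3e, Plxnd1, Efna5, Efnb2 and Unc5b (35.7%, against 4.43%). Over 2 robust SDs in either direction were 8 of the 39 (20.5%, against 9.5% of all genes kept). The median relative log2 ratio was -0.38 over the 39 guidance genes, beside 0.03 over all genes kept, and 32 of the 39 ratios were below 0. The median was -0.17 on the signals as deposited, where the siENG array is brighter and the median of all genes kept was 0.24. On that scale 23 of the 39 ratios were below 0, the 2-fold calls of Efnb2 (-0.94) and Epha7 (-0.92) were lost, and by the 1.5-fold rule 2 were lower (Efnb2 and Plxnd1) and 1 was higher (Plxnb2). Quantile normalization gave 29 of 38 below 0, and lowess centring 31 of 39. This comparison and the first share the siCont BMP-2 array, and its signal is the numerator in the first and the denominator in the second.

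Efnb2 had 142 with siENG and BMP-2, against 271 with siCont and BMP-2, a relative log2 ratio of -1.15 with an SD of 0.34. Its 4 probe sets were all lower, with ratios of -1.15 to -0.71, and their mean (-0.89) was under the 2-fold call. On the signals as deposited, its probe sets were split against vehicle. The brightest read below the 163 of vehicle with siENG and BMP-2. The other 3 read above their vehicle values (116 with siENG, against 105 with vehicle, for the second). As relative log2 ratios, the 3 probe sets kept were all below 0 (-0.42 to -0.04). The fourth, below the limit on both arrays, had 0.27. Plxnd1 had 614 with siENG, against 1041 with siCont, a ratio of -0.97 with an SD of 0.27. The vehicle signal of 645 was close to the siENG value.

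Unc5b had 648 with siENG and BMP-2, against 945 with siCont and BMP-2, a ratio of -0.75 with an SD of 0.27, and the second probe set had 555 with siENG, against 710 with siCont (-0.57). Both siENG values stayed above the vehicle signals of 350 and 245. Efna3 had 113 with siENG, against 127 with siCont (-0.38, SD 0.39), which is within 1 SD, and the siENG value was likewise above the 45.4 of vehicle. Efna5 had 295 with siENG, against 390 with siCont (-0.61, SD 0.33). Unc5b and Efna3 are not on the study's list of endoglin-dependent induced genes.

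Sema3e had 122 with siENG and BMP-2, against 171 with siCont and BMP-2, a ratio of -0.70 with an SD of 0.39, and its 4 probe sets gave -0.89 to -0.60. Sema3b was the 1 secreted semaphorin with a relative ratio above 0, with 105 with siENG, against 40.0 with siCont, a ratio of 1.19 with an SD of 0.42. Sema3b is a class 3 member known in human cancer as a candidate tumour suppressor. Of its other probe sets, both below the limit in this comparison, the second had 21.2 with siENG, against 14.5 with siCont, and the third, within the range of the Bacillus controls on both arrays, had 1.2 with siENG, against 8.8 with siCont. Sema3b taken as the mean over its probe sets turned to -0.52. Sema3a (778 with siENG, 763 with siCont) and Sema3c (433 with siENG, 421 with siCont) were nearly level on the signals as deposited, and their relative ratios of -0.18 and -0.17 were within 1 SD. Sema3f had 164 with siENG, against 212 with siCont (-0.58, SD 0.34), but its other probe sets gave 0.11 and -0.08.

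Plxnb1, the receptor of semaphorin 4D, had 22 with siENG, against 68.8 with siCont, a ratio of -1.85 with an SD of 0.49. Its second probe set went the same way with a smaller ratio of -0.68 (31.4 with siENG, 43.4 with siCont). Its relative Plxnb2 had 810 with siENG, against 529 with siCont, a ratio of 0.41 with an SD of 0.27 and the highest relative ratio among the 14 brighter members. These 2 class B plexins therefore had log2 ratios on opposite sides of 0 under each of the 4 scalings tried. The Plxnb2 ratio was within 2 SDs, on the 1 probe set of the gene.

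Epha7 had 29.0 with siENG, against 54.8 with siCont, a ratio of -1.13 with an SD of 0.49, and its 3 probe sets kept were all lower (-1.48 to -0.28). Epha4 had 54.5 with siENG, against 61.9 with siCont (-0.39, SD 0.42; second probe set -1.07), and Epha2, a receptor common in epithelium and in many cultured lines, had 129 with siENG, against 96.2 with siCont (0.21, SD 0.39). Ephb3 had 161 with siENG, against 203 with siCont (-0.54, SD 0.34), and Ephb4 had 83.2 with siENG, against 87.6 with siCont (-0.28, SD 0.40). None of the EphB receptors was called.

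The dim members Ntn1 and Dcc were both within the range of the Bacillus controls with siENG. Ntn1 had 11.4 with siENG, against 32.0 with siCont, so it is at least 2.44-fold lower, and Dcc had 5.7 with siENG, against 27.2 with siCont, at least 2.08-fold lower. The bounds are on the signals as deposited. The other Dcc probe sets read at most 1.5 on any array, so the call of Dcc rests on 1 dim probe set. Ntn4 had 172 with siENG, against 198 with siCont (-0.41, SD 0.34), and Neo1 had 324 with siENG, against 287 with siCont (-0.04, SD 0.33). Slit2 had 1230 with siENG, against 1445 with siCont, a ratio of -0.44 with an SD of 0.22, just within 2 SDs, and its 3 probe sets were all lower (-0.44 to -0.29). Robo3 had 25.3 with siENG, against 12.4 with siCont, at least 1.93-fold higher on the signals as deposited. Its relative ratio was 1.76 on the linear scale, and it was not called.

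**Figure D3:**
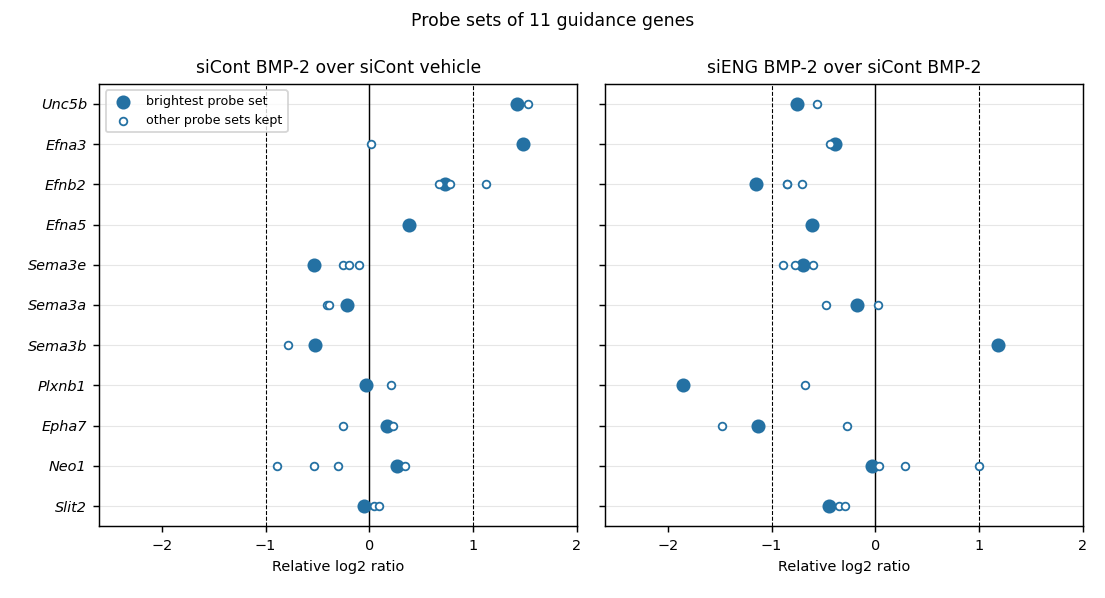
Relative log2 ratio of each probe set kept for 11 guidance genes, for siCont BMP-2 over siCont vehicle (left) and siENG BMP-2 over siCont BMP-2 (right). Filled points are the brightest probe set of a gene, open points its other probe sets kept, and dashed lines mark a ratio of 2-fold. The 4 Efnb2 points lie on one side in each panel (0.67 to 1.12 on the left, -1.15 to -0.71 on the right), whereas the Neo1 points lie on both.

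The agreement between probe sets differed between comparisons. Of 19 guidance genes with 2 or more probe sets kept, all kept probe sets of a gene had the same sign for 10 in BMP-2 over vehicle and for 13 in siENG over siCont with BMP-2. The 9 of mixed sign with BMP-2 included Neo1, Plxna2, Epha7 and Slit2, whose brightest probe sets were each within 2 SDs. Plxna2 had 109 with siENG and BMP-2, 137 with siCont and BMP-2 and 119 with siCont and vehicle. Its 4 probe sets had ratios of -0.49 to 0.19 with BMP-2 over vehicle and -0.68 to 0.37 with siENG over siCont. Another 23 of the 67 genes had 1 probe set, among them Plxnd1 and Plxnb2, and their ratios have no such check.

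By role, class 3 semaphorins had a median relative log2 ratio of -0.37 with BMP-2 over vehicle, and ephrin-A and ephrin-B ligands had medians of 0.23 and 0.44. The class 3 median stayed between -0.37 and -0.35 under the 4 scalings, but it was -0.20 over the 4 class 3 genes with a signal of at least 152. The 5 membrane semaphorins kept were also all below 0 on the probe set read, with a median of -0.26. With siENG over siCont in BMP-2, 10 of the 11 groups with members kept had medians below 0, the exception being Robo3, alone in its group. The count was 10 under lowess centring, 9 under quantile normalization and 8 on the signals as deposited.

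**Figure D4:**
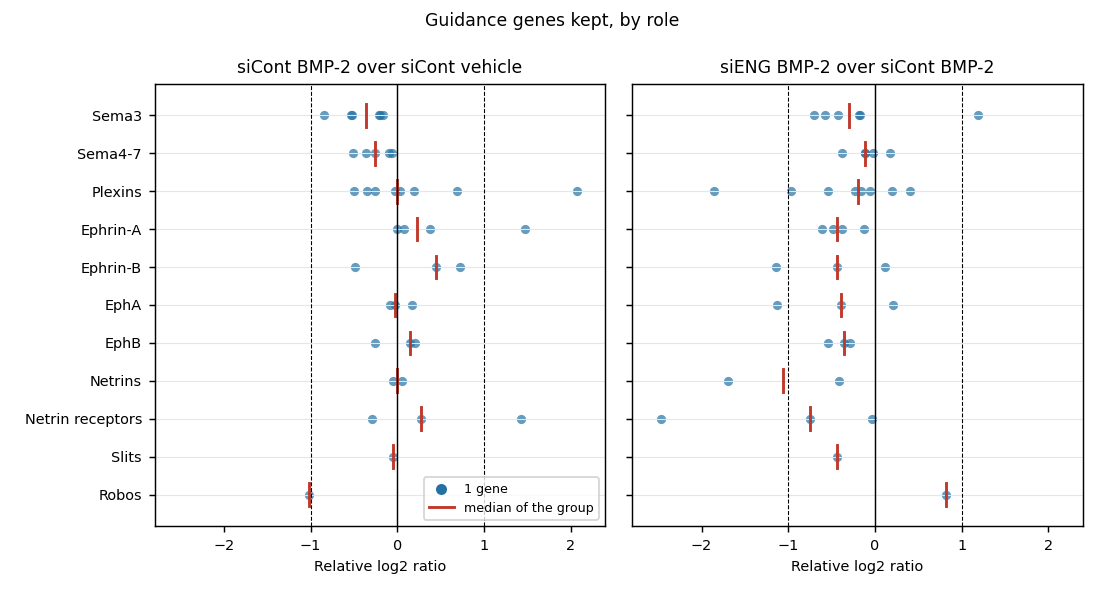
Relative log2 ratio of the guidance genes kept, by role, for siCont BMP-2 over siCont vehicle (left) and siENG BMP-2 over siCont BMP-2 (right). Each point is 1 gene, red bars are the median of the group and dashed lines mark a ratio of 2-fold. The 6 class 3 semaphorins all lie left of 0 on the left, where their median is -0.37.

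The third comparison set siENG with BMP-2 against siCont with vehicle, which differ in both the siRNA and BMP-2. It shares 1 array with each of the other comparisons. Of 40 guidance genes kept, 2 were called higher by the 2-fold rule, Efna3 and Plxna4 (5%, against 2.25% of all genes kept), and 5 lower, namely Sema3d, Sema3e, Plxnb1, Ntn1 and Dcc (12.5%, against 2.85%). Among the 14 brighter members, 1 was higher by the 1.5-fold rule, Unc5b (7.14%, against 5.16% of all such genes), and 2 were lower, Sema3e and Sema3f (14.3%, against 4.49%). Over 2 robust SDs in either direction were 10 of the 40 (25%, against 9.32% of all genes kept). The median relative log2 ratio was -0.36, beside 0.03 over all genes kept.

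Of the members called by the 2-fold rule Sema3e had the highest signals, with 122 with siENG and BMP-2, against 246 with siCont and vehicle, a ratio of -1.24 with an SD of 0.35. Its 4 probe sets gave -1.24 to -0.86. Sema3d had 27.8 with siENG and BMP-2, against 57.9 with vehicle, a ratio of -1.28 with an SD of 0.48. Sema3f had 164 with siENG and BMP-2, against 237 with vehicle (-0.75, SD 0.35). On the brightest probe set, each of these 3 secreted semaphorins was lowest with siENG and BMP-2 and highest with vehicle. The 4 Sema3e probe sets shared that order, but the other 2 Sema3f probe sets did not. The second Sema3f probe set read 155 with siENG and BMP-2, 125 with siCont and BMP-2 and 152 with vehicle. Nor did the second Sema3d probe set, which was below the limit throughout. It read 5.8 with siENG and BMP-2, 19.5 with siCont and BMP-2 and 10 with vehicle.

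Unc5b had 648 with siENG and BMP-2, against 350 with vehicle, a ratio of 0.67 with an SD of 0.30, and Efna3 had 113 with siENG and BMP-2, against 45.4 with vehicle, a ratio of 1.09 with an SD of 0.42. The second Efna3 probe set went the other way (24.6 with siENG and BMP-2, 28.4 with vehicle, ratio -0.43). Plxnd1 (-0.29, SD 0.28), Efna5 (-0.23, SD 0.32) and Efnb2 (-0.42, SD 0.37) were within 2 SDs of the median of all probe sets. Plxnb1 had 22 with siENG and BMP-2, against 69.8 with vehicle, a ratio of -1.89. On the signals as deposited, Dcc was at least 2.52-fold lower and Ntn1 at least 2.34-fold lower with siENG and BMP-2 than with vehicle. On that scale Plxna4 was at least 2.24-fold higher. These bounds are not centred, and the median log2 ratio of all probe sets past the limit was 0.22 in this comparison.

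Other genes of these pathways were read from lists chosen with earlier results of these data known. Of 20 co-receptors and modulators, 14 were kept in BMP-2 over vehicle, where 1 dim gene, Flrt1, was called higher and 0 lower (against 1.78% and 1.59% of all genes kept), with a median of 0.17. Nrp1, the neuropilin that serves Sema3a and VEGF, was higher by the 1.5-fold rule, with 765 with BMP-2, against 454 with vehicle, a ratio of 0.74 with an SD of 0.15. Nrp2, the neuropilin that serves Sema3f, had 1005 with BMP-2, against 1039 with vehicle (-0.06, SD 0.11). The 2 neuropilins thus differed with BMP-2. With siENG and BMP-2, Nrp1 had 599, against 765 with siCont and BMP-2 (-0.56, SD 0.27), and Nrp2 had 710, against 1005 with siCont (-0.71, SD 0.27). Of 15 co-receptors kept in that comparison, 0 were called higher and 0 lower by the 2-fold rule (against 2.32% and 2.7% of all genes kept), and the median was -0.35. Against vehicle, siENG with BMP-2 had Nrp2 and Flrt2 lower by the 1.5-fold rule.

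Of 50 effectors that act inside the cell, 47 were matched and 38 were kept in BMP-2 over vehicle. Dpysl3, a collapsin response mediator protein of the semaphorin pathway, was the 1 gene called (2.63%, against 1.78% of all genes kept), with 1468 with BMP-2, against 628 with vehicle, a ratio of 1.22 with an SD of 0.11. It too is on the study's own list of induced genes, but is not on the study's list of endoglin-dependent ones. With siENG and BMP-2 it had 797, against 1468 with siCont and BMP-2, a ratio of -1.09 with an SD of 0.22, and was the 1 gene of 38 called by the 2-fold rule (2.63%, against 2.7% of all genes kept lower), a call lost on the signals as deposited (-0.88). Its paralogue Dpysl2 had 1310 with BMP-2, against 1257 with vehicle (0.05), and 1432 with siENG and BMP-2, against 1310 with siCont and BMP-2 (-0.08). Myo10, a motor of filopodia that carries netrin receptors, had 847 with siENG and BMP-2, against 1239 with siCont and BMP-2 (-0.76, SD 0.27), and Vav2, an exchange factor that acts below Eph receptors, had 162 with siENG and BMP-2, against 236 with siCont and BMP-2 (-0.75, SD 0.34). Nck2, an adaptor of the actin machinery, was lower by the 1.5-fold rule with siENG and BMP-2 than with vehicle (-0.65). The median of the effectors was 0.00 with BMP-2 over vehicle and -0.01 with siENG over siCont, beside -0.38 for the ligands and receptors with siENG over siCont. The difference between the lists was not tested.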

How the data were processed

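Total RNA of PDL-L2 cells was read on 3 arrays, 1 per condition. For each probe set the authors deposited 1 intensity on a linear scale. GCOS 1.4 is named in the submitters' processing notes (signal algorithm and scaling: not given in the sources used here). In place of a listed 0 the value 0.1 was used. The 64 controls among 45101 probe sets were not compared, and 34958 had a single gene symbol in the platform annotation, 932 several and 9211 none. Only the first kind named a gene, and 34754 annotated gene identifiers were matched to RefSeq (GRCm38.p6).

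Log2 ratios were centred on the median over all probe sets that reached the signal limit. The robust SD is 1.4826 times the median absolute deviation in 20 bins of mean log2 signal. The gene families, and the other lists, were chosen with earlier results of these data known, and the members were then taken by symbol. The count of ratios over 2 robust SDs was added after the data were seen. Members named with values were those called, the brightest of each role, those with probe sets of mixed sign and those of large ratio to SD. From the other lists up to 4 genes were named, chosen by the size of their ratio among those above the 75th percentile, and Flrt1 and Dpysl2 were named after their values were seen. The number of arrays limits the precision. Alternatives changed the signal limit, the scaling between arrays, the treatment of low signals and the reading of several probe sets. The software was Python 3.11.15 (pandas 2.3.3, numpy 2.4.6, statsmodels 0.14.6, matplotlib 3.10.9).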

Additional observations from a re-analysis of the deposited data

How the results depend on the processing

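The median relative log2 ratio of the guidance genes moved by less than the spread among members under every alternative tried, in each of the 3 comparisons. Counts of called members are small and depended mainly on the signal limit. With no limit, 9 members were called higher and 7 lower with BMP-2 over vehicle, 5 higher and 12 lower with siENG over siCont in BMP-2, and 6 higher and 10 lower with siENG and BMP-2 over vehicle, in place of 3, 1, 1, 5, 2 and 5. Under a limit set at the 75th percentile the counts were 1, 0, 0, 1, 0 and 1, and fewer genes are tested there. With the limit on the mean log2 signal of the 3 arrays, 0 were lower with BMP-2, 3 lower with siENG over siCont, and 1 higher and 3 lower with siENG over vehicle. With signals under the median set to the median, the same 4 counts were 0, 3, 1 and 3. On the signals as deposited, siENG over siCont gave 2 higher and 3 lower, while over all genes kept 437 were higher and 180 lower, against 252 and 293 relative to the median. Lowess centring left 0 lower with BMP-2, and quantile normalization changed no count by over 1.5 times. With the mean over probe sets, 0 were lower with BMP-2 and 0 higher with siENG over vehicle, and 23 of 120 gene ratios changed sign. Of these, 4 belonged to called genes: Sema3b for siENG over siCont (-0.52), Plxna4 (-0.40) and Ntn1 (0.27) for siENG over vehicle, and Robo3 for BMP-2 over vehicle (0.046). The members called also changed where the counts moved little. With BMP-2 over vehicle, Efna3 and Plxna4 lost the 2-fold call and Ntn1 gained it. With siENG over siCont, Efnb2 and Sema3b lost it, and Sema3d (lower) and Sema7a (higher) gained it. The cause of these changes was not tested. No paired analysis was possible because each condition has 1 array.

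The calls of Plxna4, Robo3, Ntn1 and Dcc rest on 1 signal near the limit and 1 no brighter than the Bacillus controls, and only bounds are given for them.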
